A study of Homo sapiens with 4 samples.

Results

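The forkhead genes FOXF1, FOXC2 and FOXL1 lie close together on 16q24, and FOXQ1, FOXF2 and FOXC1 on 6p25. These 6 genes, 3 in each cluster, were followed through the lists of CHD5 and H3K27me3 regions that overlap a fixed window around each cluster in hg19. The 16q24 window runs from 86.35 to 86.8 Mb of chromosome 16 (450 kb) and the 6p25 window from 1.2 to 1.75 Mb of chromosome 6 (550 kb). Together they held 938 of the 257073 H3K27me3 regions and 5 of the 32543 CHD5 peaks. The regions come from SH-SY5Y, a human neuroblastoma cell line, kept in 10 uM retinoic acid for 8 days, an agent that drives these cells toward a neuron-like state. The CHD5 library is a streptavidin pull-down from cells expressing FBio-CHD5, a tagged form of this nucleosome remodeller. The H3K27me3 library is an antibody precipitation from cells with the same construct, so both profiles were made in the presence of tagged CHD5. A pull-down from cells with the Fbio-Ctrl construct and an input library also belong to the series, and their region lists were not analysed here. All 4 groups have 1 library, so no value below has a replicate error and no difference was tested. Region lists hold no read counts, so depth is unknown, and they hold no expression values, so neither the identity of the line nor the RNA level of any FOX gene was examined.

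Forkhead (FOX) proteins are transcription factors that share a winged-helix DNA-binding domain. Both clusters pair a member of the FOXF class with a member of the FOXC class, beside FOXL1 or FOXQ1, an arrangement that goes back to duplication of an ancestral cluster. FOXF1 and FOXF2 act mainly in mesenchyme, FOXF1 in lung and gut and FOXF2 in palate and in the pericytes of brain vessels. FOXC1 and FOXC2 act in cranial mesenchyme, eye and vessels, with FOXC2 best known for lymphatic valves. FOXL1 marks mesenchyme under the gut epithelium, and FOXQ1 acts in epithelia such as hair follicle and stomach. H3K27me3 is the histone mark laid down by the Polycomb repressive complex, and developmental transcription factor genes are its typical carriers in cells that do not use them.

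H3K27me3 overlapped 5 of the 6 genes, and FOXC1 was the exception. For FOXQ1 the overlap lay within 1 kb of the end of its span, which is the precision of gene positions. Around FOXC1 the 6p25 cluster changed from one profile to the other: H3K27me3 ended 13.7 kb before the gene, and a CHD5 peak lay 0.535 kb before its start. Gene positions are given to 1 kb, so this last distance is known only to about that precision. The 3 genes on 16q24 each carried H3K27me3 on part of their span, from 19.4% to 57.6%, and their nearest CHD5 peaks were 758 to 794 kb away. A tile of 5 kb, about the length of a member, held an H3K27me3 base in 12.5% of 606867 tiles on chromosomes 1 to 22 and X. A CHD5 peak touched 6.78% of these tiles, and no CHD5 peak touched the span of any of the 6 genes. Most tiles were thus without the mark, as FOXC1 was, and the other 5 genes belonged to the smaller share with it.

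Sequence upstream of the start is shown for the 6p25 genes, because this cluster holds both marked and unmarked members and RefSeq promoter entries were matched for these 3 (FOXQ1, FOXF2 and FOXC1). The contrast between them lay in gene spans and flanks: at the starts themselves, as far as 1-kb positions show, none of the 3 had a listed H3K27me3 region. FOXF1, FOXC2 and FOXL1 were not matched. Each line gives the 250 bases before the start, 5′ to 3′ on the + strand, from the RefSeq table of GRCh38.p14, with every CG dinucleotide in capitals. The positions are chr6:1311848-1312097 for FOXQ1, chr6:1389326-1389575 for FOXF2 and chr6:1609665-1609914 for FOXC1. They belong to GRCh38.p14 and are not comparable with the hg19 positions in the rest of the text.
FOXQ1: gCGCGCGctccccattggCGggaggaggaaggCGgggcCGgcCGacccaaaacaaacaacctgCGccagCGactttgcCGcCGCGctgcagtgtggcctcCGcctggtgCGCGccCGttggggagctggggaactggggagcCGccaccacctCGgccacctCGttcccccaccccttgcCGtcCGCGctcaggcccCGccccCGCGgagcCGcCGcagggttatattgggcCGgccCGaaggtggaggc
FOXF2: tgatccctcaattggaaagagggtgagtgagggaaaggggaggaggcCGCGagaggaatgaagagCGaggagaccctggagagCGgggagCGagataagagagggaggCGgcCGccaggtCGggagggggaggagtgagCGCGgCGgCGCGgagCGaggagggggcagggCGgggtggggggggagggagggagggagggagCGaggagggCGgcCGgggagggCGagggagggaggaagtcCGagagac
FOXC1: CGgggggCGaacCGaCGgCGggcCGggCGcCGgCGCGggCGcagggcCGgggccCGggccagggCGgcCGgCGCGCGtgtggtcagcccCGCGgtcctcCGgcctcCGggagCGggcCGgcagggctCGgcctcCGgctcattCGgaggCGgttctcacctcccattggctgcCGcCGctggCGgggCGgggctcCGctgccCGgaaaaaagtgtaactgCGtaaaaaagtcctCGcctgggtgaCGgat

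All 3 stretches were rich in CG, the dinucleotide of CpG islands. FOXC1, the unmarked gene, had 37 CG dinucleotides and a GC content of 76.8%. FOXQ1 had 29 at 74.0%, and FOXF2 had 20 at 70.8%. The median of 35116 promoter entries of the same length was 11 CG dinucleotides and 58.0% GC, and 4.0% of entries had as many as FOXC1, 14.1% as many as FOXQ1 and 32.4% as many as FOXF2. The letters CCAAT, searched on both strands, were found once each before FOXF2 and FOXC1 and in 2 places before FOXQ1, and 32.0% of all entries held them. TAAACA, the core of many forkhead binding sites, also searched on both strands, was in none of the 3 stretches and in 11.0% of all entries. These are letter matches in 250 bases and show no binding, and other forms of the forkhead site were not searched.

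**Figure D1:**
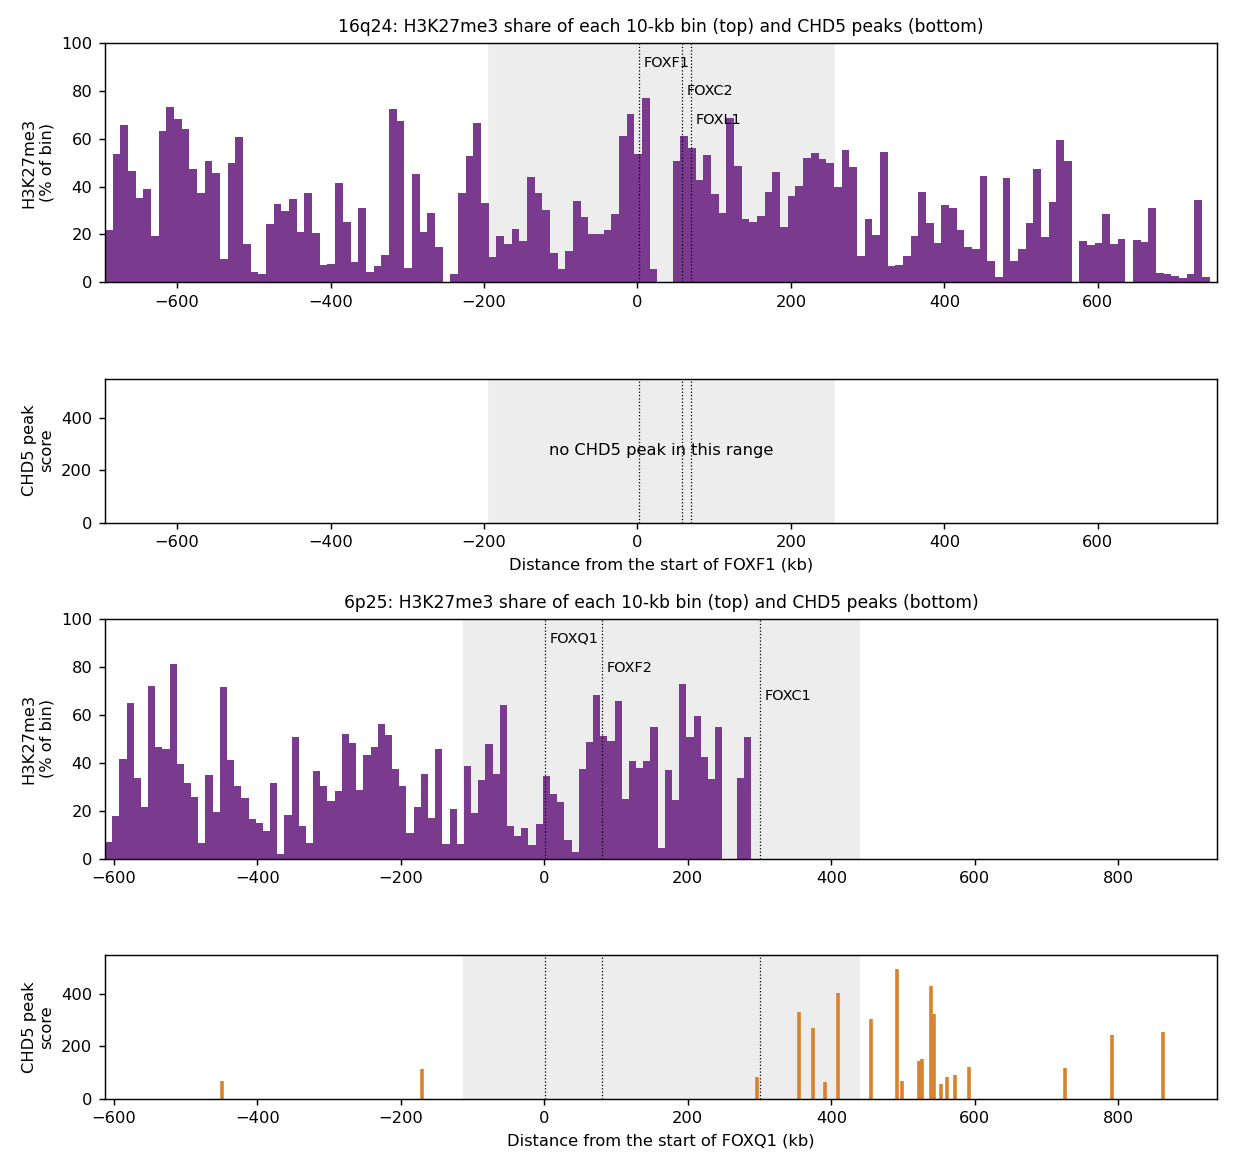
H3K27me3 and CHD5 along the 16q24 cluster (upper pair of panels) and the 6p25 cluster (lower pair), each window in grey with 500 kb on either side; the x axis is the distance in kb from the start of FOXF1 or FOXQ1. Purple bars give the percent of each 10-kb bin covered by H3K27me3, orange lines mark CHD5 peaks with their score as height, and dotted lines mark the genes. H3K27me3 runs on past all 3 genes on 16q24, where no CHD5 peak is drawn, and ends just before FOXC1 on 6p25, where CHD5 peaks follow.

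The first comparison was the amount of H3K27me3 in the 2 windows. On 16q24 the mark formed 498 regions that covered 156 kb, or 34.8% of the window. On 6p25 it formed 440 regions that covered 137 kb, or 25%. After the last gene, the 16q24 window includes 184 kb, covered to 41.4%, and the 6p25 window 135 kb. Measured from the first to the last gene instead, cover was 37.6% of 72 kb on 16q24 and 35.4% of 303 kb on 6p25, which brought the 2 clusters closer. The 135 kb from FOXC1 to the end of the 6p25 window held no H3K27me3. In 10-kb bins, 2 of 45 on 16q24 and 17 of 55 on 6p25 held no H3K27me3, and the fullest bin reached 77.1% and 72.9%. Single regions were of much the same size in both clusters, with a median width of 234 bp on 16q24 and 245.5 bp on 6p25, against 238 bp over the whole list.

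Both windows were among the more heavily marked of the genome. Of 6730 tiles of 450 kb, 53 had at least the H3K27me3 share of the 16q24 window, or 0.788%, and the median tile had 0.0786%. Of 5507 tiles of 550 kb, 113 had at least the share of the 6p25 window, or 2.05%, and the median tile had 0.0915%. Tiles include assembly gaps, where no region can be listed. This describes where the 2 windows lie in 1 library and is no test.

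**Figure D2:**
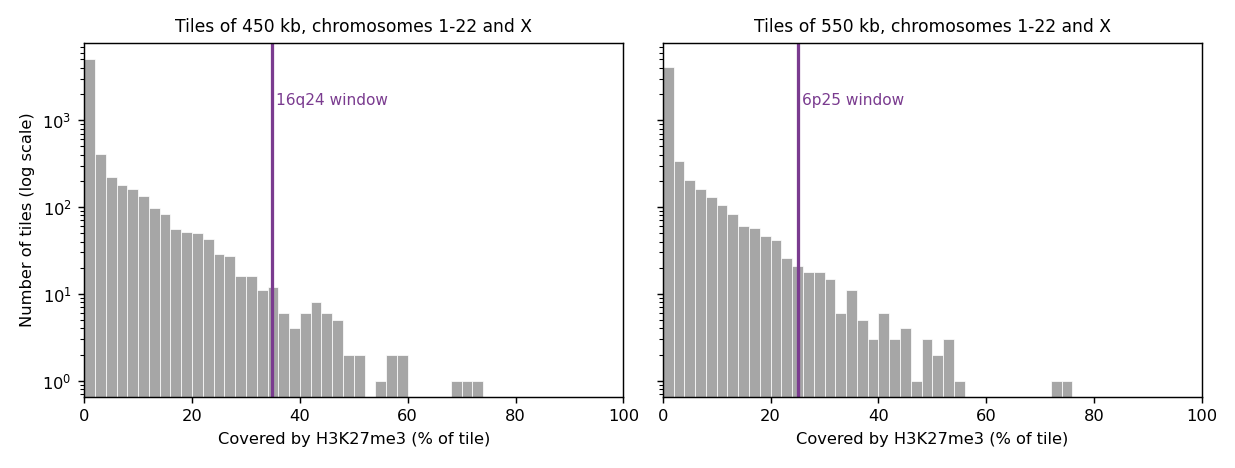
Number of genome tiles (y axis, log scale) by the percent of the tile covered by H3K27me3 (x axis), for tiles as long as the 16q24 window (450 kb, left) and the 6p25 window (550 kb, right). Purple lines mark the windows at 34.8% and 25%, both far to the right of the bulk of tiles.

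Within the genes the mark was patchy, and each marked gene had its own pattern. FOXF1 (86.544 to 86.549 Mb) carried 8 regions over 53.0% of its 5 kb, and its highest was chr16:86545336-86545837, with a score of 340.07. FOXL1 (86.612 to 86.616 Mb) carried 8 regions over 57.6% of its 4 kb. The highest region that touched it, chr16:86610185-86612178, scored 1176.98, and 0.802% of all H3K27me3 regions scored as high. It lay mostly before the gene: 178 of its 1994 bp fell on the span, which is less than the precision of the gene position. FOXC2 (86.6 to 86.603 Mb) carried 4 regions over 19.4% of its 3 kb. A stretch of 1648 bp without the mark, from 86601344 to 86602991, took up 54.9% of FOXC2.

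The H3K27me3 region with the highest score of either window lay after FOXC2. The region chr16:86604794-86607200 was 2407 bp wide with a score of 1418.89, and 0.567% of the list scored as high. It lies between FOXC2 and FOXL1, and the 9 kb between these genes was covered to 83.6%, the highest share of any interval between members. FOXC2 thus had little of the mark on its own span and much on either side, 50.7% of the 10 kb before and 78.6% of the 10 kb after it. FOXL1 had 75.4% before and 25.3% after, and FOXF1 had 67.8% and 76.2%. The 10 kb after FOXC2 and the 10 kb before FOXL1 both hold the 9 kb between these genes, so their shares are not separate.

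On 6p25, FOXF2 (1.39 to 1.396 Mb) carried 10 regions over 40.4% of its 6 kb. Its highest region, chr6:1395963-1396620, scored 384.65 and lay mostly after the gene, with 38 bp on the span. FOXF2 had 68.4% cover in the 10 kb before it and 48.6% in the 10 kb after. FOXQ1 (1.312 to 1.315 Mb) was the least covered of the marked genes, with 3 regions over 15.6% of its 3 kb. A stretch of 2365 bp without the mark, from 1311901 to 1314265, took up 75.5% of FOXQ1, while 21.8% of the 10 kb before and 36.3% of the 10 kb after were covered. The cover of FOXQ1 lay after this stretch, within 1 kb of the end of its span, which is the precision of the gene position. The highest region near FOXQ1, chr6:1315221-1315997, scored 380.81. FOXC1 (1.61 to 1.615 Mb) had no region on its 5 kb or within 10 kb on either side.

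In 4 of the 5 marked genes the gene span was less covered than the same span with 10 kb added on both sides. The same comparison was not made for other spans, so this count cannot be called a trait of these genes. The flanks of FOXC2 and FOXL1 also overlap each other. The wider values were 68.2% for FOXF1, 58.7% for FOXC2, 27.3% for FOXQ1 and 54.3% for FOXF2. FOXL1 went the other way, with 57.6% on the gene and 51.5% with its flanks. The genes with the lowest cover, FOXQ1 and FOXC2, were also the shortest spans, at 3 kb each. Among 5-kb tiles that hold any H3K27me3 the median cover was 13.5%, below each of the 5 marked genes. The spans of the genes are not all 5 kb, and the value for FOXQ1 rests on the last 1 kb of its span.

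**Figure D3:**
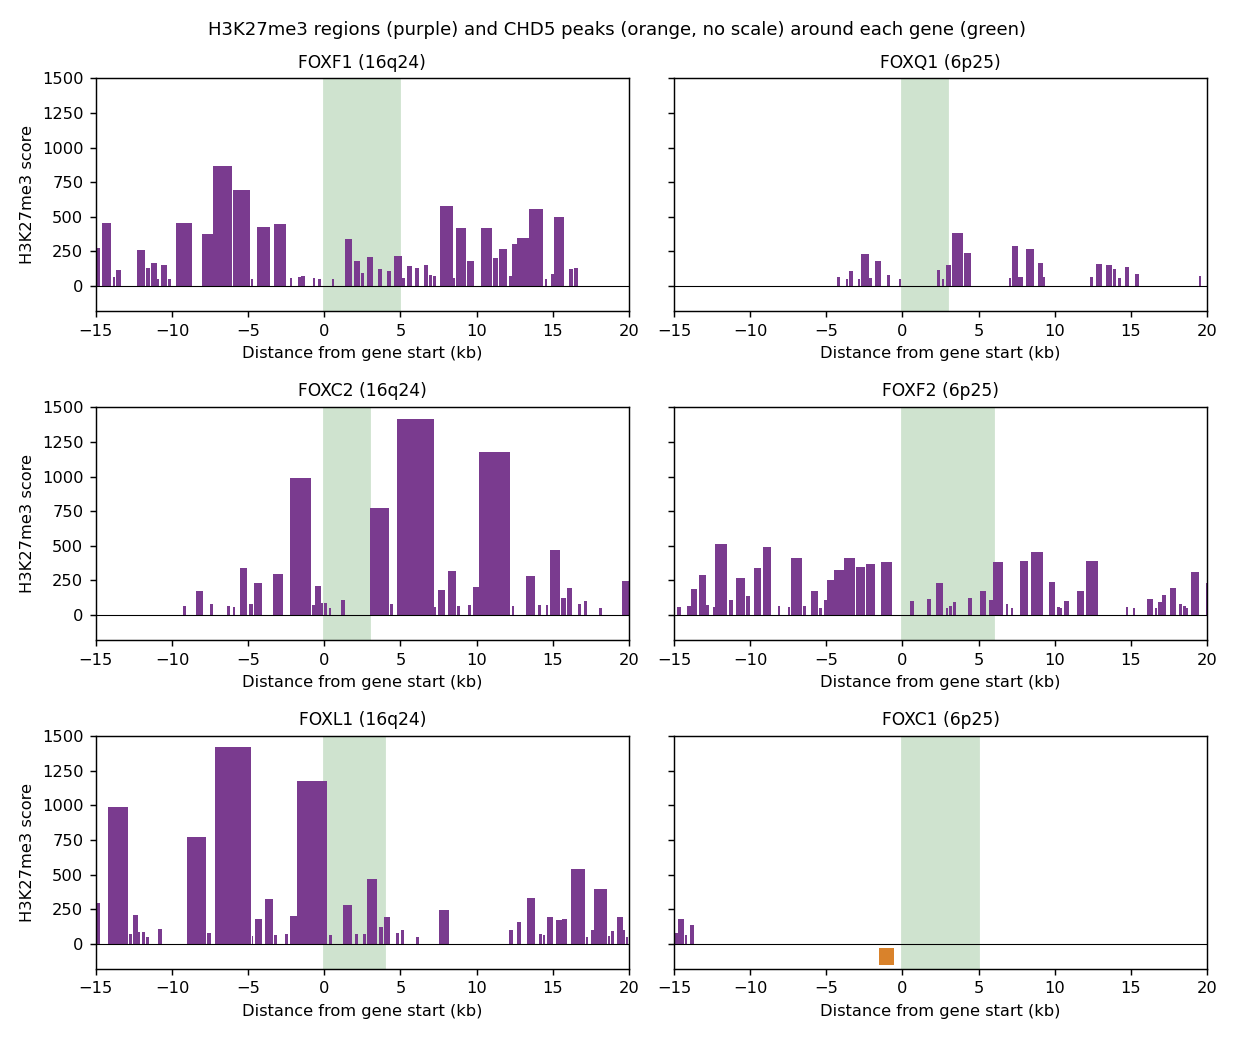
H3K27me3 regions (purple bars; width to scale, height the score within that list) from 15 kb before to 20 kb after the start of each gene, whose span is green; the left column is 16q24 and the right column 6p25. Orange blocks below the line mark CHD5 peaks without a scale. Regions surround FOXC2 and FOXQ1 but leave most of their spans empty, and FOXC1 has a CHD5 peak 0.535 kb before its start and no H3K27me3 on or next to the gene.

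The second comparison was that of domain edges. Neighbouring H3K27me3 regions with gaps of at most 3 kb were merged into domains, since the caller splits a broad mark into short pieces. The 16q24 window then held 13 domains of at least 5 kb and the 6p25 window 10. FOXF1 lay in a domain of 60.9 kb, chr16:86499707-86560647, covered to 52.5%. FOXC2 and FOXL1 shared one of 29.4 kb, chr16:86590716-86620163, covered to 57.6%. FOXF2 lay in a domain of 65.7 kb, chr6:1362816-1428471, covered to 52.6%, and FOXQ1 in one of 19.8 kb, chr6:1307711-1327520, covered to 38.4%. Of all 38537 domains in the list, 0.732% were as wide as that of FOXF1 and 0.599% as wide as that of FOXF2, against 3.01% for FOXC2 and FOXL1 and 5.57% for FOXQ1. Most of the 38537 were narrow: 10180 reached 5 kb, and the shares among those alone would be larger. The widest domain of each window held no member: chr16:86750375-86828181 spanned 77.8 kb after FOXL1, and chr6:1481863-1559505 spanned 77.6 kb between FOXF2 and FOXC1. These widths depend on the joining distance. Across 1 kb the domain of FOXF1 was 29.0 kb, the widest of its window, and that of FOXL1 15.2 kb. This domain of FOXL1 reached FOXC2 by only 9 bp, less than the precision of gene positions. The break of 1648 bp on FOXC2 parted it from the other regions on that gene. The domain of FOXF2 was then 12.3 kb and that of FOXQ1 2.25 kb. Across 10 kb FOXC2 and FOXL1 lay in the widest domain of their window, at 285 kb.

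Within its window, the marked stretch on 16q24 had a single large break, and it fell between 2 members. From 86560648 to 86590715, 30.1 kb held no H3K27me3 region, beginning 11.6 kb after FOXF1 and ending 9.29 kb before FOXC2. The next widest break in that window was 7.54 kb. In the RefSeq gene order of GRCh38.p14, MTHFSD is the protein-coding gene between FOXF1 and FOXC2. Its hg19 position was not used here, so whether the break matches that gene was not tested. No CHD5 peak lay in the break. The domains of the cluster began again at 86590716 and continued beyond FOXL1, where 41.4% of the 184 kb to the end of the window was covered, and 21.5% of the next 500 kb.

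On 6p25 the mark ended within the cluster. Before FOXC1 the intervals between genes were covered to 31.7% (FOXQ1 to FOXF2, 75 kb) and 37.6% (FOXF2 to FOXC1, 214 kb). The last domain, chr6:1581113-1596329, spanned 15.2 kb, followed a break of 21.6 kb and was covered to 55.4%. After its end no H3K27me3 region was listed from 1596330 to 2421135, over 825 kb, and FOXC1 lay inside this stretch. The 500 kb before the edge held 533 regions covering 32.6%, and the 500 kb after it held 0. In the RefSeq order the next protein-coding gene after FOXC1 is GMDS, an enzyme of GDP-fucose synthesis. On 16q24, by contrast, the 500 kb on either side of the window were covered to 33.3% and 21.5%.

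The third comparison was the distance to CHD5. Around the 16q24 genes CHD5 was far away on both sides. FOXF1 lay 758 kb from the nearest CHD5 peak before it and 848 kb from the nearest after it, FOXC2 lay 814 and 794 kb, and FOXL1 826 and 781 kb. The bounding peaks were chr16:85784707-85786003, with a score of 131.84, and chr16:87396793-87398594, with 216.75. The window itself held 0 CHD5 peaks, as did 23.5% of the 450-kb tiles, so an empty window alone is common. The CHD5-free stretch around the genes measured 1.61 Mb and held 1462 H3K27me3 regions over 27% of its length. Of 293 such stretches of at least 1 Mb, 150 were as wide, but 3, or 1.02%, this one included, had an H3K27me3 share as high, against a median of 4.66%.

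The 6p25 genes were nearer to CHD5 and differed among themselves. FOXQ1 lay 169 kb from the nearest CHD5 peak before it and 293 kb from the nearest after it. The nearer of these scored 113.46, under the list median, and without peaks under the median the nearest to FOXQ1 was 351 kb away. FOXF2 lay 247 and 212 kb from CHD5, and FOXC1 0.535 and 51.5 kb. Without peaks under the median the nearest to FOXF2 was 270.5 kb away. All 5 CHD5 peaks of the window lay after the last H3K27me3 domain, and 4 of them after FOXC1. At least as many peaks were found in 49.3% of the 550-kb tiles, so the number is ordinary, and what can be described is their place. None of the 5 overlapped H3K27me3, and neither did most CHD5 peaks, of which 2.19% overlap it.

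The peak before FOXC1, chr6:1608444-1609465, was a modest one. It was 1022 bp wide with a score of 84.11, and 67.6% of all CHD5 peaks scored as high, the list median being 117. It lay 12.1 kb from the edge of the last H3K27me3 domain. Among all CHD5 peaks 8.58% were as near to H3K27me3 or nearer, and among H3K27me3 domains of at least 5 kb 7.84% had a CHD5 peak as near as this domain, where the median domain had 207 kb. If CHD5 peaks under the list median are left out, the peak is lost and the nearest to FOXC1 lies 51.5 kb away.

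The peaks after FOXC1 were mostly higher. Those within the window were chr6:1666453-1668658 with a score of 332.01, chr6:1685922-1688042 with 271.44, chr6:1702523-1703427 with 65.27, and chr6:1719658-1723257 with 403.04, the widest at 3600 bp. They lay between 51.5 and 105 kb from FOXC1. The highest within 500 kb of the window was chr6:1801659-1804799, with 496.9. The H3K27me3-free stretch of 825 kb held 19 CHD5 peaks, or 23 per Mb, of which 13 scored at or above the list median. Of 1476 stretches of at least 500 kb with no H3K27me3, 17.5% had CHD5 peaks at least as dense, and the median was 13.4 per Mb. In the 500 kb before the edge there was 1 CHD5 peak and in the 500 kb after it there were 17.

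**Figure D4:**
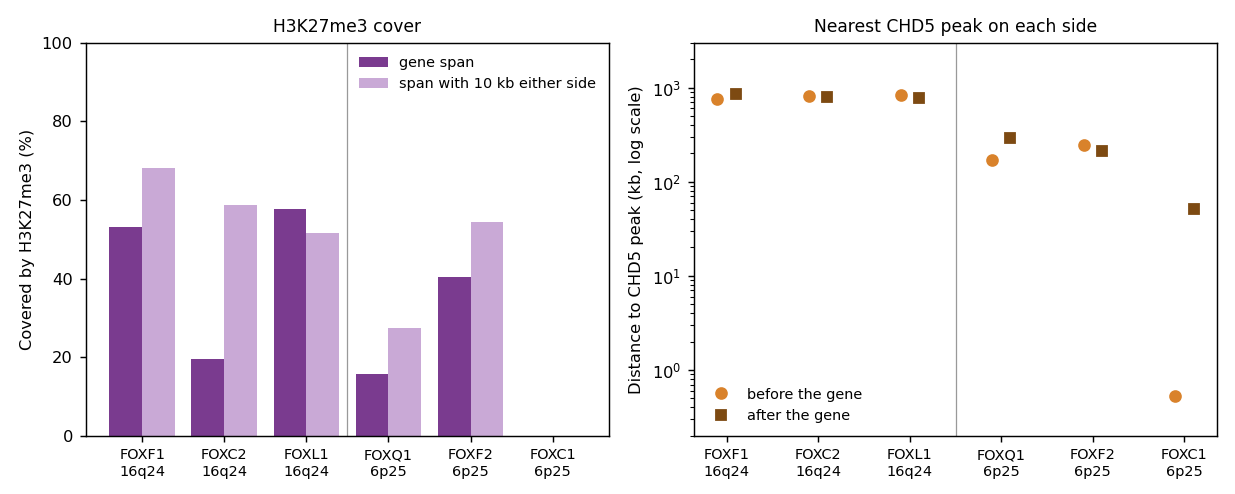
Left, percent of each gene span (dark) and of the span with 10 kb on either side (light) covered by H3K27me3; right, distance in kb (log scale) from each gene to the nearest CHD5 peak before it (circle) and after it (square). The 16q24 genes combine cover with distances of 758 to 848 kb, and FOXC1 has 0% cover and its nearest peak at 0.535 kb.

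Paralogs across the 2 clusters were set side by side. FOXF1 and FOXF2 lay in domains of 60.9 and 65.7 kb joined across 3 kb, but of 29.0 and 12.3 kb joined across 1 kb. Their cover including flanks was 68.2% and 54.3%, and their nearest CHD5 peaks were 758 and 212 kb away. With CHD5 peaks at or above the median score, the distance of FOXF2 was 270.5 kb. FOXC2 and FOXC1 were the most unlike pair, with 58.7% and 0% cover including their flanks. Their nearest CHD5 peaks were at 794 and 0.535 kb, the latter 51.5 kb with CHD5 peaks at or above the median score. FOXL1 and FOXQ1, which belong to different forkhead classes, had 51.5% and 27.3% cover including their flanks. Their distances to CHD5 were 781 and 169 kb, the latter 351 kb with CHD5 peaks at or above the median score. With 1 library of each kind, none of these differences could be set against the spread between cultures.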

How the data were processed

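ChIP-seq region lists of 2 of the 4 libraries were used, 1 library per group, with groups taken from the sample titles. Regions were called with MACS, per the file headers, which name 1 library in each list, and positions are in hg19, the build named in the submitters' processing notes. The score of each region is the one the authors deposited with the lists. Not given in the sources used here are its scale, the aligner, the MACS version and threshold, and the background library. A caller set for narrow peaks splits a broad mark into short regions, which lowers covered bases and is why regions up to 3 kb apart were joined. A peak called without the control pull-down could also be a place that captures well, which was not tested. Scores were compared only within their list.

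Windows and gene spans, given to 1 kb, were fixed by position. Overlap meant at least 1 bp, and positions are counted from 1. Tiles started at the first base of each chromosome and ran to its last listed region. Python 3.11.15, numpy 2.4.6, pandas 2.3.3 and matplotlib 3.10.9 were used. The routines were checked on simulated intervals and against bedtools 2.31.1. Named items were the 6 genes, their protein-coding neighbours by RefSeq order, the widest and highest H3K27me3 region of each gene and within 10 kb of it, domains of at least 5 kb, and the CHD5 peaks in, next to and highest within 500 kb of each window. The members, lists and backgrounds were chosen with earlier results of these data known. Promoter letters came from RefSeq (GRCh38.p14). Other forkhead genes were not analysed here.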

Additional observations from a re-analysis of the deposited data

How the results depend on the processing

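No paired analysis was possible because each group has 1 library, and no replicate could be left out. Of the 6 genes, 5 overlapped H3K27me3 also with regions at or above the median score and with spans widened by 2 kb, and 2 did when 50% of the span had to be covered. The 16q24 window held 0 CHD5 peaks with higher-scoring peaks and with 500 kb added on both sides. Of 57 alternative values in all, 14 stayed the same or, for counts, within 1.5 times, and 43 moved. Cover was called moved if it fell outside a 95% binomial interval that counts each base as independent. Neighbouring bases are not independent, so this interval is too narrow. Distances and widths were called moved unless identical, so the tally does not grade the size of a move. For example, measured to peak midpoints, FOXF1 lay 759 kb from CHD5 instead of 758 kb. Distances from the 16q24 genes to CHD5 were the same with higher-scoring CHD5 peaks. Domain widths over single genes were recomputed at other joining distances after the data were seen.

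Higher-scoring H3K27me3 regions left 274 on 16q24 and 260 on 6p25, with cover of 26.2% and 19.3% and widest domains of 46.6 and 28.5 kb. From first to last gene, cover was 37.6% and 35.4%. Joining across 1 kb gave widest domains of 29.0 and 16.3 kb, and across 10 kb 285 and 292 kb. The last 2 ran beyond their windows. That on 16q24, chr16:86590716-86875859, held FOXC2 and FOXL1, and that on 6p25, chr6:993487-1285238, held no member. Higher-scoring CHD5 peaks numbered 3 on 6p25, and 21 peaks lay in that window with 500 kb added.

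Before the first domain of the 16q24 genes CHD5 was 714 kb away, and 759 kb with higher-scoring H3K27me3, 746 kb joined across 1 kb and 523 kb joined across 10 kb. After the last domain it was 777 kb, then 779 kb joined across 1 kb and 521 kb joined across 10 kb. On 6p25 the first edge lay 165 kb from CHD5, 1014 kb with higher-scoring CHD5 peaks, and 172 kb both with higher-scoring H3K27me3 and joined across 1 kb. The last edge lay 12.1 kb from CHD5 at each joining distance and H3K27me3 limit, and 70.1 kb with higher-scoring CHD5 peaks, so the nearness at FOXC1 rests on 1 peak with a score of 84.11. Depth is unknown, so a gene or window without a region is one without a listed region.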

Other observations

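The last CHD5 peak before the 6p25 window lay on H3K27me3, as do 2.19% of all CHD5 peaks. It was at chr6:1141675-1142728, 169 kb before FOXQ1, with a score of 113.46. Of its 1054 bp, 762 bp, or 72.3%, were inside H3K27me3, shared between 2 regions. These regions open a domain of 11.0 kb, chr6:1141911-1152888, whose highest score, 980.15, belongs to a region that the peak touches, and 1.12% of the H3K27me3 list scored as high. It was the only CHD5 peak in the 500 kb before the edge at FOXC1.

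Tiles marked as heavily as the windows often held few CHD5 peaks. Of the 53 tiles of 450 kb with at least the H3K27me3 share of the 16q24 window, 16 held no CHD5 peak. Over all 6730 such tiles, 1580, or 23.5%, held none. The median was 1 peak among the 53 and 3 over all tiles. Of the 113 tiles of 550 kb with at least the share of the 6p25 window, 27 held at least as many CHD5 peaks as that window. Over all 5507 such tiles, 2713, or 49.3%, did. The median was 1 among the 113 and 4 over all tiles.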
